A study of Mus musculus with 9 samples.

Results

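Peptides shown on the cell surface by major histocompatibility complex (MHC) class I molecules are cut, carried and loaded by a small set of proteins, and 9 genes of that set were followed from the last spermatogonia into preleptotene (PL) spermatocytes of the mouse testis. They were the peptide transporter genes Tap1 and Tap2, the tapasin gene Tapbp, the immunoproteasome genes Psmb8, Psmb9 and Psmb10, and the class I chain genes B2m, H2-K1 and H2-D1. The genes were taken by name, 9 of the 24505 genes counted, and Tap2 was chosen by its measured rise from In/B spermatogonia to PL spermatocytes, so that rise is described here and not tested. All cells came from Uchl1-eGfp mice, a C57BL/6 line outcrossed to outbred CD-1, which carry EGFP downstream of the Uchl1 promoter, and spermatogonia were gated as bright and PL spermatocytes as dim. In every group spermatogenesis had been synchronized with WIN 18,446, an inhibitor of retinoic acid (RA) synthesis, fed at 100 µg per g of body weight from postnatal day (P) 1, and started with 1 injection of RA at P11 (10 µl at 10 µg/µl). In/B spermatogonia were sorted at P17. PL spermatocytes were sorted at P19 from mice in which WIN 18,446 had been stopped (RA-sufficient) or had been given on after the injection (RA-deficient). Each group had 3 libraries, and the testes of at least 5 pups of a litter were pooled for a preparation. The comparison of the PL groups asked which transcripts of cells entering meiosis depended on RA made by the testis.

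Class I molecules are built in the endoplasmic reticulum from a heavy chain and the light chain beta-2 microglobulin. Peptides cut by the proteasome in the cytosol are pumped in by the transporter, a heterodimer of TAP1 and TAP2, to which tapasin tethers the waiting class I molecule. Interferons induce most of these genes, and under interferon the immunoproteasome subunits PSMB8, PSMB9 and PSMB10 take the places of the constitutive PSMB5, PSMB6 and PSMB7.

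Levels are given as normalized CPM, counts scaled to a common library size with TMM. The adjusted p is that of edgeR's quasi-likelihood test after Benjamini-Hochberg adjustment over all genes tested, and a gene was called where it was below 0.05 and the fitted difference was more than 2-fold (a log2 fold change beyond 1 either way). In bulk libraries, fewer cells of a type and less RNA per cell cannot be told apart.

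The genes sit in few places. On mm9, Psmb9 (chr17:34318932-34324697, minus strand), Tap1 (chr17:34324498-34334170, plus), Psmb8 (chr17:34334666-34338399, plus) and Tap2 (chr17:34340472-34353266, plus) follow one another within the MHC, and Psmb9 and Tap1 overlap at their starts on opposite strands. Tapbp (chr17:34052844-34066235, plus), H2-K1 (chr17:34132962-34137278, minus) and H2-D1 (chr17:35399675-35404444, plus) lie on the same chromosome. Psmb10 (chr8:108459628-108462292, minus) and B2m (chr2:121973422-121978819, plus) lie elsewhere. B2m overlaps Patl2 on the other strand and Tapbp overlaps Zbtb22 on the same strand. Whether strand was used in counting is not given in the sources used here, so reads from such overlaps cannot be assigned with certainty.

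Promoter windows from 250 bases before to 50 after the start were found in the RefSeq table (GRCm38.p6) for 8 of the 9 genes, all but Tap2. They are shown for the 3 class I chain genes, which were called higher than In/B in both PL groups, and for Tap1, whose window overlaps that of Psmb9. Each was searched on both strands for GAANNGAAA (the core of an interferon-stimulated response element), GGGNNTTCC (a kB core), TGACG (an X2 box core) and CCAAT. Capitals mark every match, in either orientation, and no matches overlapped in these windows.
H2-K1 (chr17:34000298-34000597, minus strand): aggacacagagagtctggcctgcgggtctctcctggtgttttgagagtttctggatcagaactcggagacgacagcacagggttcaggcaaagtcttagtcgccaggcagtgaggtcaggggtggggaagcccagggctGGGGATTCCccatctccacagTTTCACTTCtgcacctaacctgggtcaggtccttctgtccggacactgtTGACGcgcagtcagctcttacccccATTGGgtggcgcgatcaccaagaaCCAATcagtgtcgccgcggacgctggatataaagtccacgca
H2-D1 (chr17:35262844-35263143, plus strand): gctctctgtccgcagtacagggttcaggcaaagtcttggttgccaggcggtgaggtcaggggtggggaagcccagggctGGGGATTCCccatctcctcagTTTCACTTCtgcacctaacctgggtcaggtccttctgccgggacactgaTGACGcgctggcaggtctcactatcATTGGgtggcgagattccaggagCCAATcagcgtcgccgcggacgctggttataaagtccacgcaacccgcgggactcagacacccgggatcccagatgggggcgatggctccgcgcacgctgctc
B2m (chr2:122147437-122147736, plus strand): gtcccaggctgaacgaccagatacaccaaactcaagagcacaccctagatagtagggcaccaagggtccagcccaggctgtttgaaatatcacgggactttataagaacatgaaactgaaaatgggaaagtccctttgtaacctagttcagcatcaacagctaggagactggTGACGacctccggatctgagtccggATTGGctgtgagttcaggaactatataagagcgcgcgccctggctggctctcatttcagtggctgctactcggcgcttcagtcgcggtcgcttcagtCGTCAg
Tap1 (chr17:34187306-34187605, plus strand): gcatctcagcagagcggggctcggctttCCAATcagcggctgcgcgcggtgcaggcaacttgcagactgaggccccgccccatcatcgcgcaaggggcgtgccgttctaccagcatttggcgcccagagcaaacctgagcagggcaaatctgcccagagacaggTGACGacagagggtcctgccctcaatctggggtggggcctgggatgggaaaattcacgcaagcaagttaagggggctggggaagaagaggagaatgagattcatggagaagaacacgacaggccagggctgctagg

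H2-K1 and H2-D1 held all 4 motifs in the same order. B2m held TGACG and CCAAT, as did the shared window of Tap1 and Psmb9, Tapbp held CCAAT alone, and Psmb8 and Psmb10 held none of these letters. Of 27025 promoter windows of the same length, GAANNGAAA was found in 7.56%, GGGNNTTCC in 5.72%, TGACG in 21% and CCAAT in 37.9%. A match describes letters and not binding.

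**Figure D1:**
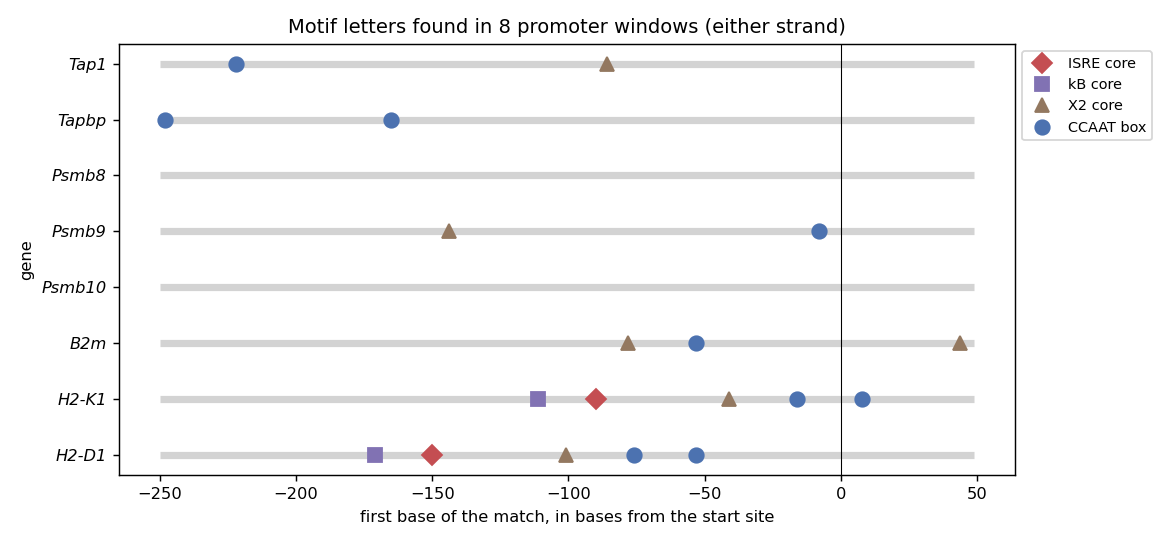
Places of 4 motifs in the promoter windows of 8 genes. The x axis gives the first base of each match in bases from the start site and each symbol is 1 match on either strand; H2-K1 and H2-D1 carry the same 5 matches in the same order, and the grey bars of Psmb8 and Psmb10 carry none.

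The libraries held 12612959 to 27042274 counts. The RA-deficient libraries, at 25048240 to 27042274, had a count for 14769 to 15327 genes against 16758 to 18434 in the others. RA-deficient replicate 3 stood apart from replicates 1 and 2 (Pearson's r across genes 0.903 and 0.904, against 0.984 between those), and replicate 1 of each other group stood apart less (0.946 to 0.963). Kit, a receptor of differentiating spermatogonia that was chosen after its values were seen, was at 561 and 521 normalized CPM in RA-deficient replicates 1 and 2 and at 20.3 in replicate 3, against 20.2 to 41.0 in RA-sufficient PL and 327 to 404 in In/B. Values without RA-deficient replicate 3 are therefore also given for Tap1, Psmb9, Psmb10 and H2-D1. They rest on RA-deficient replicates 1 and 2, in which Kit was high. Of 9 PL markers, 7 were called higher than in In/B in each PL group (26.1% of all genes in RA-sufficient PL and 11.4% in RA-deficient PL). Transcripts of cells outside the germ line were counted as well. All 11 measured Sertoli cell markers were called higher in RA-sufficient PL than in In/B, against 26.1% of all genes. All 11 were called lower in RA-deficient than in RA-sufficient PL, against 11%. Of these, Amh and Fshr passed the filter on low counts against In/B through their RA-sufficient counts alone, and Fshr did so between the PL groups as well. Their summed level was 195, 584 and 424 normalized CPM in In/B, 5312, 3909 and 3955 in RA-sufficient PL and 561, 586 and 873 in RA-deficient PL. Of 13 macrophage and blood markers, 7 were tested in RA-sufficient PL against In/B. Most of these, such as Lyz2 at 6, 5 and 4 counts in In/B, passed the filter through their RA-sufficient counts alone. Calls are therefore not read for this list. The sums of the 13 were 5.65 to 6.05 in In/B, 13.9 to 27.1 in RA-sufficient PL and 7.57 to 14.9 in RA-deficient PL. Hba-a1 and Hbb-b1 had no count in any library, and Ptprc reached at most 0.485. In the same order of groups, Leydig cell markers summed to 10.9 to 23.4, 105 to 110 and 18.4 to 34.6. Peritubular and stromal markers summed to 72.5 to 89.8, 76.8 to 82.1 and 127 to 133, and endothelial markers to 21.3 to 31.7, 12.4 to 19.2 and 26.6 to 29.6.

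Tap2 is left out of the counts and medians here, since its rise from In/B chose it. From In/B to RA-sufficient PL, the contrast of that choice, 7 of the other 8 genes were called higher and Psmb10 was called lower. Of all 15001 genes tested, 26.1% were called higher and 19.3% lower. From In/B to RA-deficient PL, 3 of 7 tested were called higher and 0 lower, against 11.4% called higher and 11.8% lower of 14877 genes. DESeq2 called 0 lower as well, and 0 had an unadjusted p below 0.05 in that direction. Psmb8 was too low to be tested. Between the PL groups, 3 of 8 were called lower in RA-deficient PL and 1 higher, against 11% and 4.47% of 15352 genes. Psmb8, 1 of the 3 and also among the 7 called higher in the first comparison, passed the filter both times through its RA-sufficient counts alone. Its calls are not read. The median log2 fold change of the tested genes was 2.64, 1.80 and -1.20 in these comparisons, against 0.04, 0.00 and -0.09 over all genes tested. The third median was the same with Psmb8, which had no count in RA-deficient PL, set at its bound. With libraries scaled by size alone in place of TMM, the median of all genes moved by -0.32 in the second comparison and -0.18 in the third, and genes called higher fell from 49.1% to 28.9% and from 28.8% to 17.5% of all calls. Any pair of these comparisons shares a group of libraries, and they are given side by side.

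**Figure D2:**
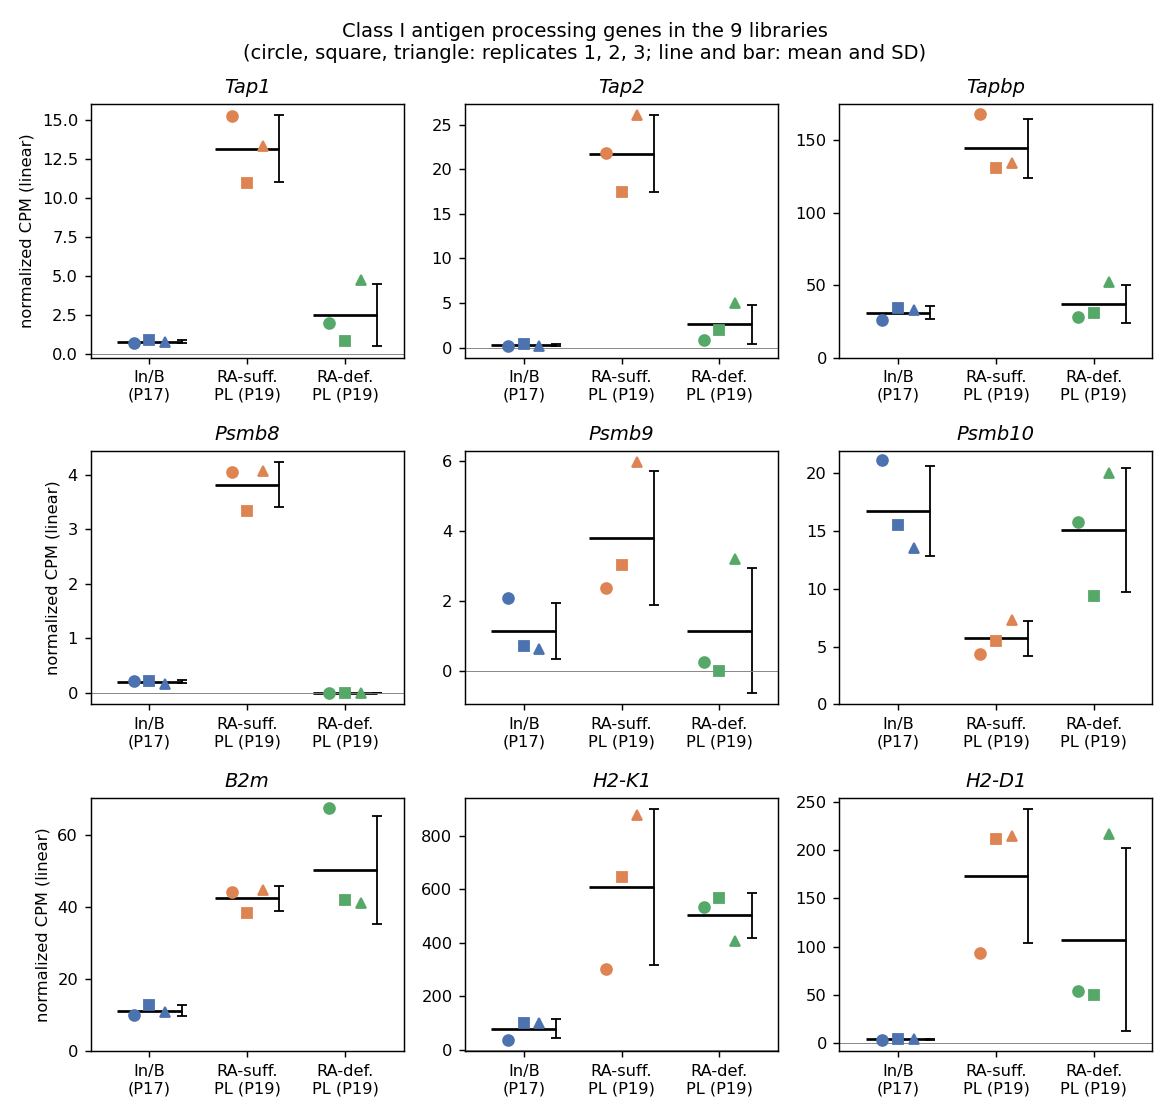
Normalized CPM (linear y axes, a scale for each gene) of the 9 genes in the 3 groups; circles, squares and triangles are replicates 1, 2 and 3, and the line and bar give mean and SD. Tap1, Tap2, Tapbp and Psmb8 are high in RA-sufficient PL alone, B2m, H2-K1 and H2-D1 are high in both PL groups, and Psmb10 is low in RA-sufficient PL.

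The transporter genes were lowest in In/B and highest in RA-sufficient PL. Tap2, the transporter gene chosen by its rise, was at 0.224, 0.416 and 0.226 in In/B, from 4, 11 and 4 counts. It was at 21.8, 17.5 and 26.1 in RA-sufficient PL, from 296, 288 and 591 counts, and at 0.7998, 2.02 and 4.98 in RA-deficient PL. No library of one group reached the range of another. The means were 75.5-fold apart between RA-sufficient PL and In/B, 9.02-fold between RA-deficient PL and In/B, and 8.37-fold between the PL groups, all as descriptions. With each library left out in turn, its log2 fold change was 2.43 to 3.70 in RA-deficient PL against In/B. Between the PL groups it was -3.93 to -2.62. These ranges are descriptions as well, and no call is read for Tap2.

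Tap1, its partner, was at 0.727, 0.907 and 0.791 in In/B, at 15.2, 10.97 and 13.3 in RA-sufficient PL and at 2.00, 0.832 and 4.72 in RA-deficient PL. The RA-sufficient libraries were above all others, and RA-deficient replicate 2 lay within the In/B range. Tap1 was lower in RA-deficient than in RA-sufficient PL by a log2 fold change of -2.40 (SE 0.62, adjusted p = 0.0315). That call was lost when any RA-sufficient library or RA-deficient replicate 1 was left out, with the log2 fold change between -2.53 and -2.23 and adjusted p from 0.0795 to 0.0991, and without RA-deficient replicate 3 it was -3.21 with adjusted p = 0.00194. Against In/B, the RA-deficient value was 1.80 (SE 0.81, adjusted p = 0.123), and it passed the threshold without RA-deficient replicate 2 (2.18, adjusted p = 0.0479). Per base of exon, Tap2 stood at 0.414 to 0.664 of Tap1 in In/B and at 2.07 to 2.83 times it in RA-sufficient PL, so their order was turned. In RA-deficient PL the ratio was 0.579, 3.52 and 1.53, on counts that were low.

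Tapbp, which encodes the tether between transporter and class I molecule, was expressed in all groups. It was at 26.1, 33.9 and 33.0 in In/B, at 168, 131 and 134 in RA-sufficient PL and at 28.2, 30.7 and 51.8 in RA-deficient PL. All 3 RA-sufficient libraries were above all 6 others, and the ranges of In/B and RA-deficient PL overlapped. It was 3.91-fold lower in mean level in RA-deficient than in RA-sufficient PL (log2 fold change -1.98, SE 0.27, adjusted p = 0.00348), a call made with every library left out in turn. RA-deficient PL and In/B differed by 0.42 (SE 0.27, 95% interval -0.19 to 1.03, adjusted p = 0.261).

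The Sertoli markers moved with these genes. The summed level of Tap1 and Tap2 was 0.951 to 1.32 in In/B, 28.4 to 39.4 in RA-sufficient PL, and 2.80, 2.85 and 9.71 in RA-deficient PL, where the highest value was in replicate 3, the library with the highest Sertoli sum of its group. Within each group the libraries ranked by Tapbp as they did by the Sertoli sum. The part of the Sertoli cells in these differences was not tested.

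The immunoproteasome genes did not move as 1 group. Psmb8, which encodes the chymotrypsin-like subunit that replaces PSMB5, was at 0.224, 0.227 and 0.170 in In/B, from 4, 6 and 3 counts, and at 4.05, 3.33 and 4.06 in RA-sufficient PL. It had no count in any RA-deficient library. Against a floor of 3 counts per library, it was at least 29.1-fold lower in RA-deficient than in RA-sufficient PL. Psmb8 passed the filter in that comparison through its RA-sufficient counts alone, so the difference is a description with no test. Psmb9 had 6, 0 and 73 counts in the RA-deficient libraries, so 0 counts there may not mean a level under the floor.

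Psmb9, whose product replaces PSMB6, varied within groups. It was at 2.07, 0.718 and 0.622 in In/B, at 2.36, 3.03 and 5.96 in RA-sufficient PL and at 0.240, 0 and 3.19 in RA-deficient PL. RA-deficient replicate 3 lay within the RA-sufficient range, and the value between the PL groups was -1.72 (SE 1.44, 95% interval -5.10 to 1.65, adjusted p = 0.423). Its higher level in RA-sufficient PL than in In/B (log2 fold change 1.80) no longer met the call rule without In/B replicate 2 or 3 or RA-sufficient replicate 3 (1.31 to 1.51). Between the PL groups Psmb9 passed the filter through its RA-sufficient counts alone, so no call is read for it there. Without RA-deficient replicate 3, with 6 and 0 counts left, the value was -4.91, as a description with no test. Against In/B the RA-deficient value was 0.16 (SE 1.54, adjusted p = 0.949), and it was -3.03 (adjusted p = 0.133) without replicate 3.

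Psmb10, whose product replaces PSMB7, went the other way. It was at 21.1, 15.5 and 13.5 in In/B, at 4.34, 5.46 and 7.32 in RA-sufficient PL and at 15.8, 9.39 and 20.02 in RA-deficient PL. The RA-sufficient libraries were below all others and the other 2 groups overlapped. It was 2.64-fold higher in mean level in RA-deficient than in RA-sufficient PL (log2 fold change 1.40, SE 0.38, adjusted p = 0.0363), and the call was lost without any RA-sufficient library or without RA-deficient replicate 1 (1.26 to 1.59, adjusted p from 0.0805 to 0.129), and with libraries scaled by size alone (1.21, adjusted p = 0.0605). Without RA-deficient replicate 3 the value between the PL groups was smaller, 1.14 (adjusted p = 0.0429). RA-deficient PL and In/B differed by 0.01 (SE 0.34, 95% interval -0.77 to 0.80). The summed level of 9 spermatogonia markers was also lowest in RA-sufficient PL, at 2050 to 2509, against 5210 to 6595 in In/B and 5973, 5975 and 3821 in RA-deficient PL. Of the 9, 5 were called higher and 1 lower in RA-deficient than in RA-sufficient PL, against 4.47% and 11% of all genes. RA-deficient replicate 3 had the lowest marker sum and the highest Psmb10 level of its group. The part of spermatogonia in the Psmb10 values was not tested.

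Per base of exon, the constitutive partners were more abundant than the immunoproteasome genes in every library. Psmb6 was at 151 to 165 normalized CPM in In/B, 127 to 150 in RA-sufficient PL and 129 to 144 in RA-deficient PL, and Psmb9 per base of exon reached at most 0.0204 of it in any library. Psmb7 was called lower than in In/B in both PL groups (-1.17, SE 0.14, and -1.29, SE 0.15). Psmb10 stood at 0.0678 to 0.0887 of Psmb7 per base in In/B, at 0.0426 to 0.0797 in RA-sufficient PL and at 0.106 to 0.284 in RA-deficient PL. Psmb8 stood at 0.191 to 0.231 of Psmb5 in RA-sufficient PL, but Psmb5 itself was listed at 5.16 to 15.5 normalized CPM, far under Psmb6 and Psmb7. Of the 10 tested genes of the constitutive core, its activator and its assembly, 5 were called lower in RA-sufficient PL than in In/B (median -1.003). In RA-deficient PL 4 were called lower than in In/B (median -0.41). The shares of all genes called lower were 19.3% and 11.8%. In the third comparison edgeR and DESeq2 called 0 of them (median -0.13), and 5 had an unadjusted p below 0.05. There 11% of all genes were called lower and 4.47% higher. Psme1, a subunit of the interferon-inducible activator, differed by 0.95 (SE 0.19, adjusted p = 0.013) between the PL groups, just within the fold limit.

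**Figure D3:**
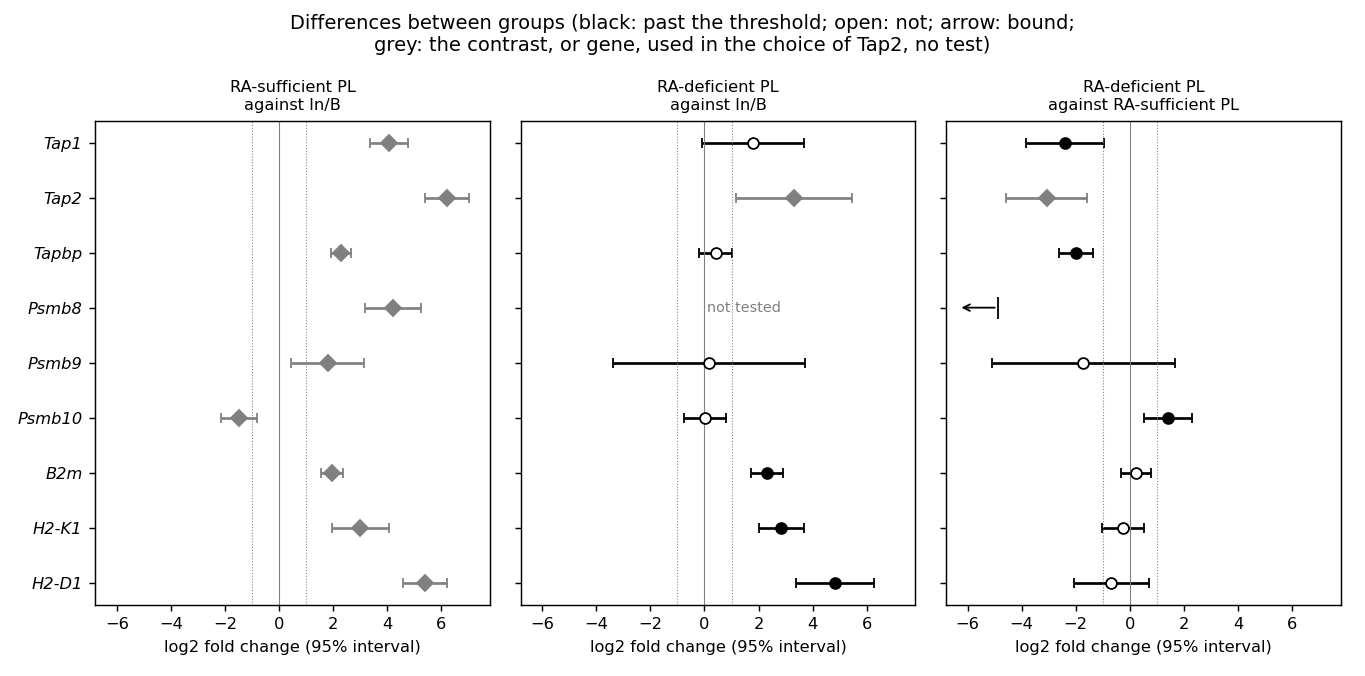
Log2 fold changes of the 9 genes (y axis) with 95% intervals in the 3 comparisons (edgeR's quasi-likelihood fit). Black symbols passed the threshold and open ones did not, and the arrow of Psmb8 starts at its bound of -4.86. Grey diamonds are the values of Tap2, and those of every gene in RA-sufficient PL against In/B, the contrast in which Tap2 was chosen. Between the PL groups Tap1 and Tapbp lie to the left of 0, Psmb10 to the right, and the intervals of B2m, H2-K1 and H2-D1 cross 0.

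The class I chains were higher in both PL groups than in In/B. B2m, the light chain, was at 10.12, 12.9 and 11.1 in In/B, at 44.2, 38.4 and 44.9 in RA-sufficient PL and at 67.7, 42.0 and 41.3 in RA-deficient PL. No PL library of either kind reached the In/B range. RA-deficient PL exceeded In/B 4.43-fold in mean level (log2 fold change 2.31, SE 0.25, adjusted p = 4e-04), and the PL groups differed by 0.24 (SE 0.24, 95% interval -0.32 to 0.79, adjusted p = 0.503).

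H2-K1, a classical heavy chain, had the highest mean level per kb of the 9 genes in each group. It was at 36.9, 99.1 and 101 in In/B, at 301, 647 and 880 in RA-sufficient PL and at 532, 568 and 407 in RA-deficient PL. The lowest PL library was above the highest In/B library, and replicate 1 was the lowest of In/B and of RA-sufficient PL. RA-deficient PL exceeded In/B by a log2 fold change of 2.84 (SE 0.36, adjusted p = 0.000794). The PL groups overlapped and differed by -0.27 (SE 0.33, 95% interval -1.04 to 0.51, adjusted p = 0.598).

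H2-D1, the other classical heavy chain counted, was at 3.69, 4.73 and 4.35 in In/B, at 93.0, 211 and 215 in RA-sufficient PL and at 54.5, 50.5 and 217 in RA-deficient PL. The highest In/B library was far below the lowest PL library, RA-deficient replicate 2. RA-deficient PL exceeded In/B 25.2-fold in mean level (log2 fold change 4.82, SE 0.63, adjusted p = 0.000863), and by 3.79 without replicate 3 (adjusted p = 1.08e-05). Between the PL groups the value was -0.69 (SE 0.59, 95% interval -2.07 to 0.70, adjusted p = 0.438). Without RA-deficient replicate 3, whose level was that of RA-sufficient replicates 2 and 3, H2-D1 was called lower in RA-deficient PL (-1.71, adjusted p = 0.00708).

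The summed level of B2m, H2-K1 and H2-D1 ranked the libraries as the Sertoli sum did within In/B and within RA-deficient PL, and not within RA-sufficient PL. In/B replicate 2 and RA-deficient replicate 2 had almost the same Sertoli sum, 584 and 586, and their class I sums were 117 and 660. Their sums of peritubular and stromal markers were 72.5 and 127. RA-sufficient replicate 1 had the highest Sertoli sum of all libraries and the lowest class I sum of the PL libraries, 438.5 against 654 to 1139 in the other five. The part of the Sertoli, peritubular and stromal cells in the class I values was not tested. The mice were outbred on CD-1, reads were aligned to a C57BL/6 genome, and heavy chain genes are alike in sequence, so that counts can be split among them or lost. H2-Q6, H2-Q9, H2-T9 and H2-L had no count in any library.

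**Figure D4:**
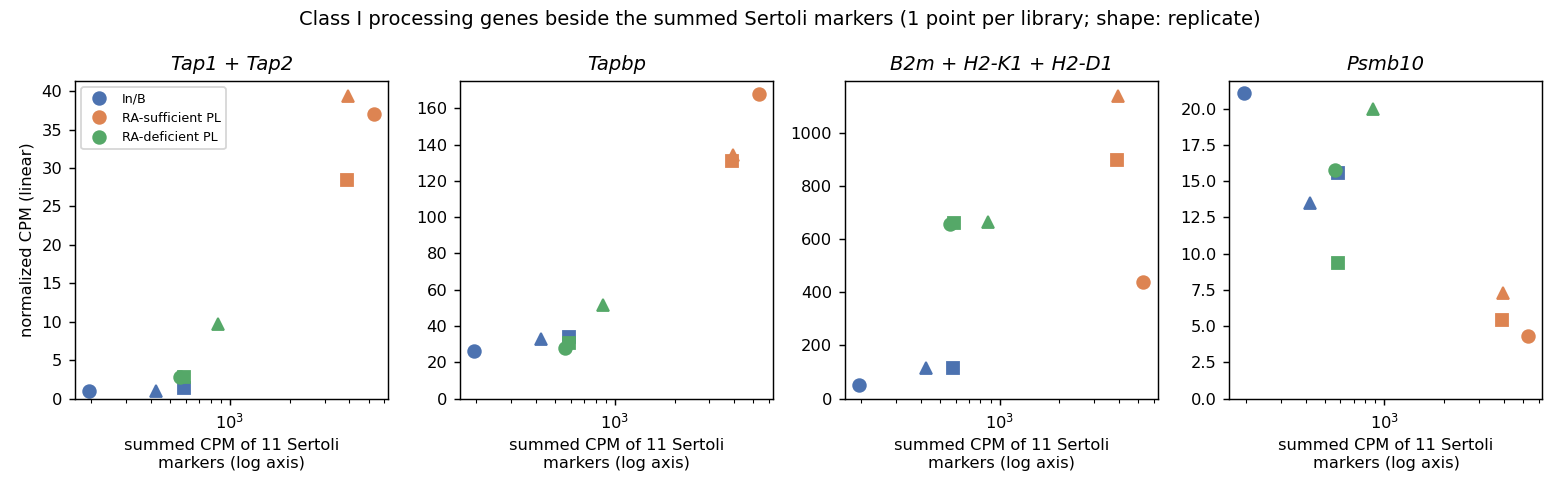
Normalized CPM of Tap1 and Tap2 summed, Tapbp, the 3 class I chains summed, and Psmb10 (linear y axes) against the summed normalized CPM of 11 Sertoli markers (log x axis), 1 point per library. RA-sufficient PL lies at the right in all panels, and the RA-deficient libraries share the x range of In/B or lie near it but have 654 to 665 normalized CPM of class I chains, above the 50.7 to 117 of In/B.

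Scaled by exon length, the order of the 9 levels changed between groups. In In/B, H2-K1 stood first at 30.3 ± 14.0 CPM per kb (SD, n = 3), followed by B2m at 13.2 ± 1.64, Psmb10 at 13.2 ± 3.09 and Tapbp at 9.39 ± 1.30, which did not differ beyond their spread except for B2m and Tapbp. H2-D1 followed at 1.64 ± 0.203 and the other 4 were at 0.310 or below. In RA-sufficient PL the order was H2-K1 at 234 ± 112, H2-D1 at 66.8 ± 26.8, B2m at 49.4 ± 4.16 and Tapbp at 43.8 ± 6.23, with the last 3 within their spread of one another. Tap2 at 5.76 ± 1.14 and Psmb10 at 4.49 ± 1.19 overlapped, and Tap1, Psmb8 and Psmb9 came last at 2.41 ± 0.390, 1.39 ± 0.152 and 1.03 ± 0.523. In RA-deficient PL H2-K1 at 192.5 ± 32.5 was followed by B2m at 58.5 ± 17.5 and H2-D1 at 41.4 ± 36.7, which overlapped, then by Psmb10 at 11.9 ± 4.22 and Tapbp at 11.2 ± 3.94. H2-D1 stood at 0.0435 to 0.101 of H2-K1 per base in In/B and at 0.246 to 0.329 in RA-sufficient PL. In RA-deficient PL it stood at 0.103, 0.0896 and 0.537.

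The genes on either side of Tap2 did not share its pattern throughout. Before it lie Psmb9, Tap1 and Psmb8, and after it the class II genes H2-Ob, H2-Ab1 and H2-Aa. H2-Ob, part of a modifier of class II loading, had no count in In/B or RA-deficient PL and stood at 2.21, 1.15 and 1.72 in RA-sufficient PL. H2-Ab1, a class II beta chain, was at 0.336, 1.29 and 1.58 in In/B, at 30.9, 39.9 and 65.0 in RA-sufficient PL and at 23.9, 26.7 and 43.0 in RA-deficient PL. RA-deficient PL exceeded In/B by 5.03 (SE 0.55). With 6 counts in In/B replicate 1, H2-Ab1 passed that filter through its RA-deficient counts, so the value is a description with no test. The PL groups differed by -0.53 (SE 0.33, 95% interval -1.30 to 0.24). H2-Aa, the alpha chain that pairs with it, stayed at or below 0.662 in every library and had no count in RA-deficient PL. H2-Ab1 and H2-Aa overlap at their ends on opposite strands. The invariant chain gene Cd74, at 1.27 to 1.99 in RA-sufficient PL, likewise had no count in RA-deficient PL. Of 9 class II genes, 6 had counts enough to be tested in RA-sufficient PL against In/B and 3 in RA-deficient PL against In/B. Several, H2-Ob and Cd74 among them, were tested through their RA-sufficient counts alone, so counts of calls are not read for this family.

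**Figure D5:**
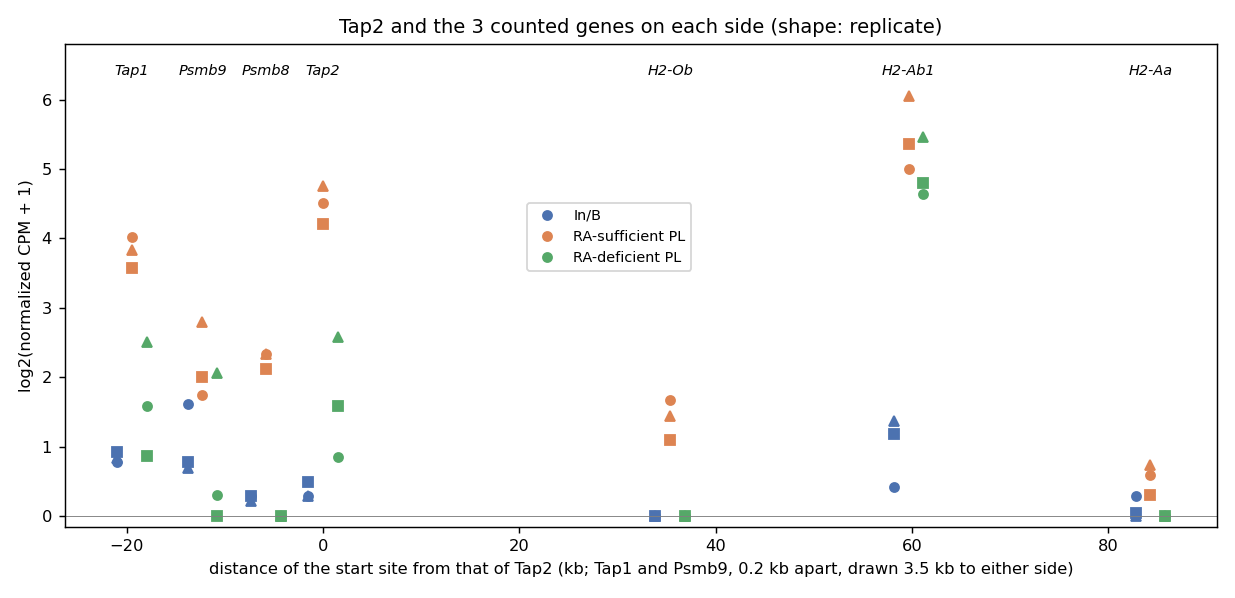
Log2(normalized CPM + 1) of Tap2 and its 3 counted neighbours on each side, by distance of the start site from that of Tap2 in kb; colours are groups and shapes replicates. Tap1, Psmb8 and Tap2 are high in RA-sufficient PL, H2-Ab1 is high in both PL groups, and H2-Ob and H2-Aa are at or near 0 outside RA-sufficient PL.

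Most other heavy chain genes and class I relatives were too low to be tested, 18 of 34 in RA-sufficient PL against In/B and 21 of 34 in RA-deficient PL against In/B. In the first comparison 11 were called higher, 0 were called lower by edgeR or DESeq2 (0 with an unadjusted p below 0.05), and 5 tested genes were not called, with H2-M3 at -0.17, H2-M5 at -0.54 and H2-M10.2 at -0.56. Some of the 11, such as H2-Q5, passed the filter through their RA-sufficient counts alone, so this count is not set against that of all genes. In RA-deficient PL edgeR called 2 of 13 higher than in In/B and DESeq2 5, against 11.4% of all genes by edgeR. They were H2-Q1 (2.47, SE 0.51, adjusted p = 0.00694) and H2-Q4 (3.18, SE 0.66, adjusted p = 0.00691). H2-Q10, with 17, 4 and 72 counts in RA-deficient PL, passed the filter between the PL groups through its RA-sufficient counts alone, so its call is not read. Hfe was called lower in RA-deficient than in RA-sufficient PL. Hfe, a regulator of iron uptake that pairs with beta-2 microglobulin but presents no peptide, was at 19.9 to 33.0 in RA-sufficient PL, 0.5598 to 3.02 in RA-deficient PL and 0.503 to 2.08 in In/B (-3.80 between the PL groups, SE 0.62, adjusted p = 0.00668). H2-T23, which encodes Qa-1, was at 10.38 to 14.1 in RA-sufficient PL and at 0.07998, 0.753 and 7.21 in RA-deficient PL (-2.13, SE 1.20, adjusted p = 0.236).

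The loading pathway also uses 11 chaperones and peptide trimmers. Between the PL groups edgeR and DESeq2 called 0 of them, where 11% of all genes were called lower and 4.47% higher, with log2 fold changes of -0.33 to 0.58 and an unadjusted p below 0.05 for 3. Pdia3, Ganab and Lnpep were called lower than in In/B in both PL groups (-1.01 to -1.26), and Calr, the gene of calreticulin, was called higher in RA-deficient PL (1.25, SE 0.11). Calr was at 1233 to 1588 in In/B, at 2061 to 2587 in RA-sufficient PL and at 2877 to 3261 in RA-deficient PL. Of 10 ABCB transporters, the family of TAP1 and TAP2, 2 of 8 tested were called higher and 0 lower in RA-sufficient PL than in In/B, near the 26.1% of all genes called higher (4 had an unadjusted p below 0.05 in the lower direction, and DESeq2 called 0). Abcb1a was tested in RA-sufficient PL against In/B through its RA-sufficient counts alone, so the count of higher calls there is not read. In RA-deficient PL 1 of 7 was called higher and 2 lower than in In/B (11.4% and 11.8% of all genes). Between the PL groups 1 of 8 was called in each direction (4.47% of all genes higher and 11% lower). Abcb9, a lysosomal peptide transporter, was called higher than in In/B in both PL groups (1.16, SE 0.21, and 2.02, SE 0.24).

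Of 18 regulators of class I genes, 2 were called higher and 6 lower in RA-sufficient PL than in In/B (26.1% and 19.3% of all genes), and 1 higher and 2 lower in RA-deficient PL (11.4% and 11.8% of all genes), with medians of -0.50 and -0.20. In the comparison of PL groups, edgeR called 0 and DESeq2 1 (median 0.26), and 4 had an unadjusted p below 0.05. Irf2 was at 2.49 to 3.58 in In/B, at 9.82 to 12.5 in RA-sufficient PL and at 1.2 to 7.39 in RA-deficient PL. Relb, an NF-kB subunit, was called higher than in In/B in both PL groups (1.08, SE 0.27, and 1.70, SE 0.21), and Nfyb, a subunit of the CCAAT-binding factor, was called lower in both (-2.62, SE 0.15, and -1.98, SE 0.24). Irf1 was at 25.4 to 40.4 in In/B, at 6.33 to 18.4 in RA-sufficient PL and at 23.2 to 35.9 in RA-deficient PL (1.18 between the PL groups, SE 0.40, adjusted p = 0.0697). Nlrc5, the class I transactivator, did not exceed 2.08 in any library.

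Ifnar2, a subunit of the type I interferon receptor, was at 9.46 to 10.16 in RA-sufficient PL, against 0.904 to 2.34 in In/B and 0.832 to 1.84 in RA-deficient PL (-2.98 between the PL groups, SE 0.45, adjusted p = 0.00518), and Ifngr2 was called lower in RA-deficient PL as well (-1.64, SE 0.29). Jak2 was called higher there (1.09, SE 0.23). Of 22 interferon-induced genes, 4 of 13 tested were called higher and 2 lower in RA-sufficient PL than in In/B, 1 of 13 lower in RA-deficient PL, and 1 of 14 higher and 3 lower between the PL groups. The shares of all genes called were 26.1% higher and 19.3% lower, 11.8% lower, and 4.47% higher and 11% lower in the same order. Some of these genes, such as Xaf1 and, between the PL groups, Iigp1, passed the filter through their RA-sufficient counts alone. The counts of calls are therefore not read for this list. Ifi35 was among those called higher in RA-sufficient PL than in In/B, and Bst2 and Socs1 were the 2 called lower. The summed level of the 22 genes was 41.7 to 59.4 in In/B, 41.4 to 70.7 in RA-sufficient PL and 30.8 to 46.6 in RA-deficient PL, and the ranges overlapped. Ifnar2, Ifngr2, Hfe and H2-Ob were highest in the RA-sufficient libraries, which also held the highest Sertoli sums, and the part of the Sertoli cells in these values was not tested.

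Among 9697 genes with a mean of at least 10 normalized CPM, the 5 whose levels over the 9 libraries were most like those of Tap2 were Txnl4b (Pearson's r 0.992), Sema5b (0.989), Tshz1 (0.986), Lmbr1l (0.983) and Vwa7 (0.982). Vwa7, another gene of the MHC, was at 1.84 to 2.65 in In/B, at 20.9 to 38.5 in RA-sufficient PL and at 2.96 to 11.9 in RA-deficient PL. Those most like B2m were Tiparp (0.987), Dgat1 (0.984), Invs (0.984), Cyb5rl (0.982) and Plekha1 (0.980). Plekha1 was at 49.4 to 54.1 in In/B and at 126 to 176 in the PL libraries. These correlations describe 9 libraries of 3 groups and carry no test.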

How the data were processed

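The 9 libraries of sorted cells were stranded poly(A) libraries read from a single end. Per the labels and methods, reads were trimmed with cutadapt 1.9, aligned to mm9 with STAR 2.5.2b and counted with featureCounts; the annotation is not given in the sources used here. The authors deposited raw counts per gene, without normalization, in 1 table of 24505 genes, and all columns matched a sample by name. Cells came from 2 or 3 independent preparations per condition in the study's words.

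Counts were tested with edgeR 4.0.16 in R 4.3.3, 3 libraries against 3, with TMM scaling, filterByExpr, the quasi-likelihood test and Benjamini-Hochberg adjustment over all genes tested. The SE is the log2 fold change divided by the root of the test's F. Normalized CPM used TMM over all 9 libraries, and levels per kb used GENCODE M1 exon lengths on the same build. P-values measure the spread between these libraries. The steps were tested on simulated counts.

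All 9 genes are named. Others are named if called in a pathway list, or among the highest 3 of one, beside Tap2, or among the 5 most like Tap2 or B2m in log2(normalized CPM + 1). The genes, lists and rules were chosen with earlier results of these data known. Psmb9 has 2 gene models and H2-K1 has 2 promoter entries, of which the first was used. Alternatives were RLE scaling, library size alone, no filter, 1 fit of all libraries, a replicate block, DESeq2 1.42.0, other thresholds and leaving out each library.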

Additional observations from a re-analysis of the deposited data

How the results depend on the processing

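Of 312 results under an alternative setting, 270 kept direction and side of the threshold. Tapbp between the PL groups, and B2m, H2-K1 and H2-D1 between RA-deficient PL and In/B, did so in all 12 alternatives. Counts of members here include Tap2 and Psmb8, whose values are descriptions. They also include Psmb9 where it was called between the PL groups, a description as well. Without Tap2, 4 were called between the PL groups and 3 between RA-deficient PL and In/B. Between the PL groups 5 were called, 2 with adjusted p of at most 0.01, and 2 to 7 with a library left out. The 2 came without RA-sufficient replicate 1 or 3 and the 7 without RA-deficient replicate 3. Between RA-deficient PL and In/B, 4 were called, and 3 to 5 with a library left out. In 1 fit of all 9 libraries 6 were, Tap1 (1.67, adjusted p = 0.0426) and Psmb8, with no count in RA-deficient PL, being added. Directions that turned were those of values not called. For Psmb9 between RA-deficient PL and In/B the value was -0.17 with library size alone, -2.04 with the replicate block and -3.03 to 0.93 with a library left out. For Psmb10 in that comparison it was -0.31 with library size alone, -0.011 without a filter, -0.11 in 1 fit of all libraries, -0.028 with the replicate block and -0.24 to 0.23 with a library left out. Between the PL groups the values with a library left out were -0.58 to 0.065 for H2-K1 and -0.018 to 0.38 for B2m. The cause of these changes was not tested.

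Whether equal replicate numbers marked shared preparations was not settled. The deviations of libraries with the same number correlated at -0.28 to 0.20 over the 3 comparisons, and not every library correlated best with its own number. Deviations within groups of 3 libraries cannot decide this. With the number as a block, 8, 3 and 4 members were called, against 9, 4 and 5 without it, Tap2 included in both. In that order, Psmb9, Tap2 and Psmb10 no longer met the call rule with the block. Leaving out 1 of 3 libraries also lowers the power of a test. Psmb8 and Psmb9 rest on few counts. The RA-deficient group had the highest median depth but a count for the fewest genes. Low genes there could differ widely between replicates, with Psmb9 at 6, 0 and 73 counts, and the reason was not tested.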
